A study of Macaca fascicularis with 4 samples.

Results

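Decorin (DCN), lumican (LUM), fibromodulin (FMOD), biglycan (BGN), osteoglycin (OGN) and dermatopontin (DPT) were followed through 4 stages of the cynomolgus monkey embryo. These 6 genes were taken by symbol from the 26223 gene rows that each library held. They had been selected with their levels by stage and marker in view, so those levels are given here as a description and no test was applied to them. Each stage was 1 droplet library of transcript 3′ ends, and the differences between stages therefore have no replicate check.

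Small leucine-rich proteoglycans are secreted proteins with a curved, repeat-built core that lies on collagen fibrils and sets how thick the fibrils grow and how they are spaced. Decorin and biglycan carry chondroitin or dermatan sulfate chains and also bind TGF-beta, while lumican, fibromodulin and osteoglycin are the keratan sulfate type of the family. Dermatopontin is not a leucine-rich protein: it is a small tyrosine-rich matrix protein that binds decorin, and it is described here as a partner of the family. In connective tissue these genes are usually read as products of fibroblasts and their mesenchymal precursors.

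The Macaca fascicularis embryos were taken at embryonic days 24, 28, 31 and 37 (E24, E28, E31, E37), which the labels place at Carnegie stages 11, 13, 14 and 18. The dissected tissue differed between them. At E24 it was trunk, without extraembryonic membranes, the regions from the heart forward and the posterior growth zone. At E28 and E31 mesonephros and coelomic epithelium of the urogenital ridge were taken with some proximal mesentery, and at E37 it was mainly the gonadal ridge with parts of the mesonephros, presumed adrenal and mesentery. Stage and dissected tissue changed together and cannot be told apart. The E24 label names 2 embryos, but its barcodes could not be split by embryo and the library was treated as 1 sample.

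The 4 libraries held 27626 cell barcodes, 5028 to 10639 per stage. Total unique molecular identifiers (UMIs, counted molecules) ran from 40243286 at E37 to 115332663 at E24, and the median per barcode from 6672.5 to 11391. Any pair of libraries shared 37 to 111 barcode sequences. Levels are UMIs per 1000000 UMIs (CPM) with exact Poisson 95% intervals, which cover counting error only. Since each UMI marks 1 transcript end, levels of different genes were set side by side without dividing by length. A dissociation stress list moved with the stages: its median log2 difference was 2.34 at E28 against E24, -1.38 at E31 against E28 and 2.37 at E37 against E31, and its part in the results was not tested.

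Decorin was lowest in the middle of the series and highest at its end. Its level was 100.5 CPM (98.7 to 102) at E24, 9.65 (8.90 to 10.5) at E28, 3.03 (2.64 to 3.46) at E31 and 328.5 (323 to 334) at E37, from 11594, 603, 219 and 13220 UMIs. It was 10.4-fold lower at E28 than at E24 (95% interval 9.6 to 11.3), another 3.18-fold lower at E31 (2.72 to 3.73) and then 108-fold higher at E37 than at E31 (94.8 to 124). After every barcode had been thinned to 2000 UMIs, DCN was found in 8.78%, 1.37%, 0.691% and 22.2% of barcodes. Barcodes rich in HBZ, an embryonic globin of red blood cells, had DCN after thinning in 0% of 99 barcodes at E24 and 0% of 113 at E37, which allows shares of up to 3.66% and 3.21% (exact binomial 95%). Globins made up a median of 21.9% and 44.3% of the UMIs in these barcodes, which lowers their CPM and thinned shares of other genes.

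Lumican had the same low middle but a different maximum. Its level was 449.3 CPM (445 to 453) at E24, 14.8 (13.9 to 15.8) at E28, 10.9 (10.2 to 11.7) at E31 and 126.7 (123 to 130.2) at E37. LUM was thus the most abundant of the 6 genes at E24, and DCN at E37. LUM at E28 was 30.4-fold below E24 (28.4 to 32.4), the difference between E28 and E31 was 1.36-fold (1.23 to 1.49), and the E37 level was 11.6-fold that at E31 (10.8 to 12.5).

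Fibromodulin and dermatopontin belonged mainly to the earliest library. FMOD stood at 19.6 CPM (18.8 to 20.4) at E24, 0.672 (0.484 to 0.909) at E28, 1.97 (1.66 to 2.32) at E31 and 5.79 (5.07 to 6.58) at E37. It was 29.1-fold lower at E28 than at E24 (21.5 to 40.5), then 2.92-fold higher at E31 (2.06 to 4.23) and 2.95-fold higher again at E37 (2.38 to 3.66). DPT gave 460 UMIs at E24, against 3, 40 and 8 UMIs at E28, E31 and E37. Its counts after E24 were too few for more than a coarse order: 0.554 CPM (0.396 to 0.754) at E31 against 0.199 (0.086 to 0.392) at E37, intervals that did not overlap.

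Biglycan changed least, and osteoglycin was highest at the end. BGN was at 12.6 CPM (11.9 to 13.2), 16.9 (15.9 to 17.9), 14.1 (13.3 to 15.01) and 21.1 (19.7 to 22.6) from E24 to E37, so that no step between neighbouring stages exceeded 1.498-fold. OGN was almost missing from the trunk, with 13 UMIs or 0.113 CPM (0.060 to 0.193) at E24. It stood at 1.71 CPM (1.40 to 2.07) at E28, 15.2-fold above E24 (8.52 to 29.5). At E31 it was at 1.07 (0.841 to 1.33) and at E37 at 29.99 (28.3 to 31.7), a 28.1-fold difference over the last step (22.3 to 35.9).

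**Figure D1:**
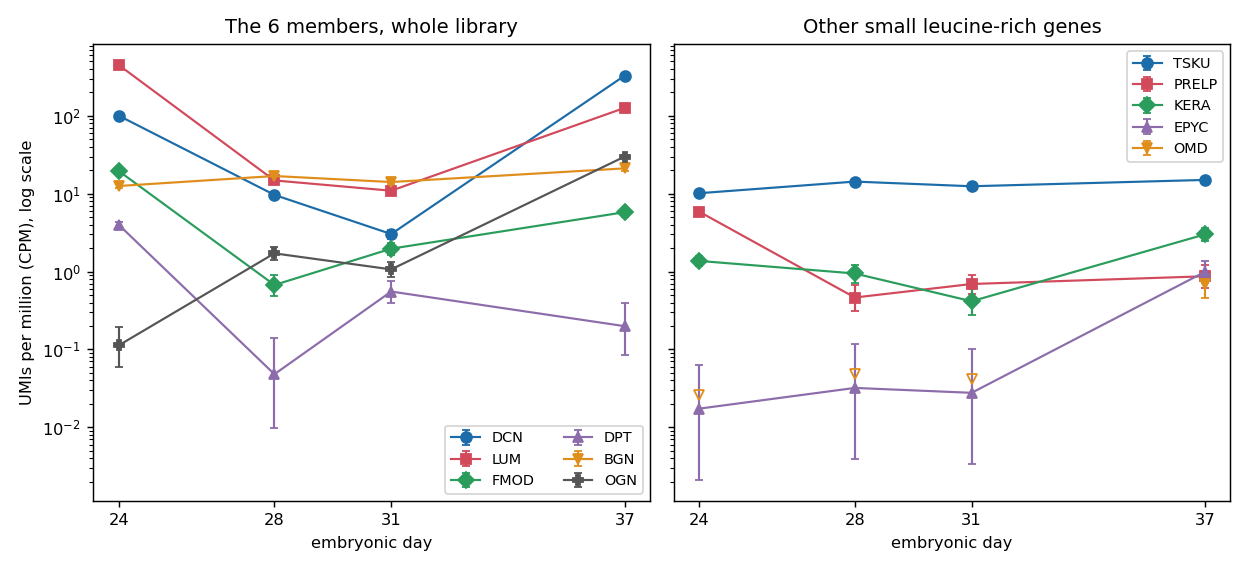
Level in the whole library (CPM, log axis) by embryonic day for the 6 genes on the left and for 5 other genes of the leucine-rich family on the right; bars are exact Poisson 95% intervals of 1 library per stage, and open triangles mark the limit of 3 counts where no UMI was found. DCN, LUM and FMOD are lower at E28 and E31 than at E24 and E37, BGN stays between 12.6 and 21.1 CPM, and OGN is highest at E37 with 29.99 CPM.

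Among all genes with at least 50 UMIs in the 2 libraries compared, the share at least 2-fold apart differed between steps. At E28 against E24, 4 of the 6 genes were at least 2-fold lower, beside 6.02% of 16157 genes, and 1 (OGN) was at least 2-fold higher, beside 16.5%. At E31 against E28, 5 of the genes passed the minimum: FMOD was higher, beside 1.21% of genes, and DCN lower, beside 3.08%. At E37 against E31, DCN, LUM, FMOD and OGN of the 5 that passed were higher, beside 8.79% of genes, and 0 were lower, beside 7.95%. The median log2 difference of all genes was 0.24, -0.06 and -0.05 over these steps, and that of the genes described here -4.11, -0.44 and 3.53. Since the genes were selected on these levels, nothing is read from these counts.

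Other genes of the family, several of them neighbours in the genome, were read at the same stages. In the RefSeq table of assembly T2T-MFA8v1.1, EPYC, KERA, LUM and DCN follow each other in this order, OGN is followed by OMD, ASPN and ECM2, and FMOD by PRELP and OPTC. KERA, keratocan, best known from the cornea, was at 1.37, 0.944, 0.415 and 3.01 CPM from E24 to E37, and so 7.24-fold higher at E37 than at E31 (4.82 to 11.2). EPYC, epiphycan, known from growth plate cartilage, had 2, 2, 2 and 40 UMIs. OMD, osteomodulin, gave 0 UMIs in the first 3 libraries and 28 at E37, while ASPN, asporin, gave 0 UMIs in all 4. PRELP, the neighbour of FMOD, was at 5.88 CPM at E24 and at 0.464, 0.692 and 0.870 thereafter; unlike FMOD, its E37 level (1.26-fold that at E31, 0.792 to 1.97) was not separated from the E31 level by counting error.

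TSKU, tsukushi, an inhibitor of several growth factors, resembled BGN, with 10.1, 14.3, 12.5 and 15.03 CPM. OPTC, opticin, had 33 UMIs at E24 and 0, 6 and 5 afterwards. The remaining genes of the list were scarce: ECM2 had 2, 2, 1 and 5 UMIs, CHAD 18, 17, 15 and 8, PODN 29, 28, 33 and 13, PODNL1 5, 6, 8 and 19, and NYX 6, 0, 4 and 1. Of the 12 other listed genes, 3 passed the minimum of 50 UMIs at E37 against E31, and 1 of them (KERA) was at least 2-fold higher.

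To see in which cells the transcripts lay, barcodes were taken that had at least 1 UMI of a marker gene. The markers were WT1, a transcription factor of coelomic epithelium, gonadal ridge and podocytes; LHX9, a transcription factor of the gonadal ridge; ACTA2, smooth muscle actin; PECAM1, an endothelial adhesion protein; and SOX10, a transcription factor of neural crest. At E37 these gates held 1757, 619, 160, 230 and 244 barcodes, and they overlapped: 61.7% of LHX9 barcodes also had WT1.

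Decorin at E37 was highest in the LHX9 gate. It stood there at 1193 CPM (1163 to 1224), in 72.5% of barcodes at a median depth of 7213 UMIs, against 3.35 CPM (1 UMI in 15 barcodes) at E24, 57.4 (47.7 to 68.6) at E28 and 17.1 (9.54 to 28.1) at E31. The LHX9 barcodes were 11.7% of the E37 library and held 44.2% of its DCN UMIs. With LHX9 but no WT1 the E37 level was 1644 CPM (1584 to 1706), with both genes 952 (919 to 987), with WT1 but no LHX9 252 (243 to 262) and with neither 191 (185 to 196). Within the gate of WT1, DCN was at 94.99, 10.97, 3.21 and 419 CPM from E24 to E37, a last step of 130-fold (109 to 157).

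Lumican did not follow decorin in the LHX9 gate. There it was at 184 CPM (139 to 239.6) at E24, 126 (112 to 142) at E28, 86.4 (68.1 to 108) at E31 and 93.2 (84.9 to 102) at E37. At E24, 20 of the 55 LUM UMIs lay in the 1 barcode that also had WT1. The 14 LHX9 barcodes without WT1 were at 133 CPM (92.5 to 185), an interval that overlaps that of E28. The E37 level was 1.08-fold that at E31 (0.845 to 1.40), while DCN differed 70.0-fold (42.4 to 125) in the same barcodes. In the WT1 gate LUM was at 303, 17.1, 10.3 and 207 CPM, 20.1-fold higher at E37 than at E31 (18.1 to 22.4), and E37 barcodes with WT1 but no LHX9 held LUM at 246 CPM (237 to 256), an interval that overlaps that of DCN.

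Osteoglycin lay outside the LHX9 barcodes. At E37 it was at 39.3 CPM (36.1 to 42.8) in the WT1 gate, 43.5-fold above E31 (31.0 to 62.8), and at 2.24 (1.12 to 4.02) in the LHX9 gate. Barcodes with WT1 but no LHX9 had 51.0 CPM (46.8 to 55.6). In the ACTA2 gate OGN reached 36.1 CPM (26.6 to 47.8), from 48 UMIs against 1 at E31.

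Biglycan moved apart from DCN and LUM in the PECAM1 gate over the last step, while in the ACTA2 gate BGN, DCN and LUM were all higher at E37 than at E31. In PECAM1 barcodes it was at 93.7 CPM (84.7 to 103) at E24, 78.2 (70.1 to 86.9) at E28, 69.3 (62.3 to 76.8) at E31 and 40.6 (32.8 to 49.6) at E37, so that it was 1.71-fold lower at E37 than at E31 (1.36 to 2.16) where DCN and LUM were higher. In ACTA2 barcodes it was at 19.0, 52.5, 19.1 and 140.5 CPM, 7.37-fold higher at E37 than at E31 (5.58 to 9.81). The ACTA2 gate did not hold the same mix at each stage: 7.57%, 67.9%, 70.4% and 23.75% of its barcodes also had WT1 from E24 to E37. DCN in the ACTA2 gate was at 56.3, 16.5, 0.265 (1 UMI) and 210 CPM, and LUM at 441, 16.1, 3.71 and 279. FMOD, with 8 or fewer UMIs at E37 in the ACTA2, PECAM1 and SOX10 gates, was at 8.64 CPM (7.14 to 10.4) in the WT1 gate, 8.83-fold above E31 (6.09 to 13.04). DPT gave 12 UMIs in the E24 WT1 gate and 1 at E37.

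Counted over the gates at E37 against E31, 4 of the 5 genes that passed the minimum were at least 2-fold higher in WT1 barcodes (7.1% of all genes there), 3 of 3 in ACTA2 barcodes (8.19%) and 2 of 3 in PECAM1 barcodes (2.49%). In SOX10 barcodes it was 1 of 1 (5.12%), and in LHX9 barcodes 1 of 3 (7.81%). The PECAM1 count was 0 where the gate asked for at least 2 UMIs of the marker or for none of the other markers. The SOX10 count was 0 without barcodes that had the other markers, and 0 without the 5% of barcodes with the most UMIs. A gene was counted only with at least 50 UMIs over both stages. Without the other markers, DCN was below this minimum in the PECAM1 and SOX10 gates and was not counted. A count of 0 can thus come from fewer UMIs and does not show that a difference was lost. The gates are part of how the genes were selected, and these counts too are a description.

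**Figure D2:**
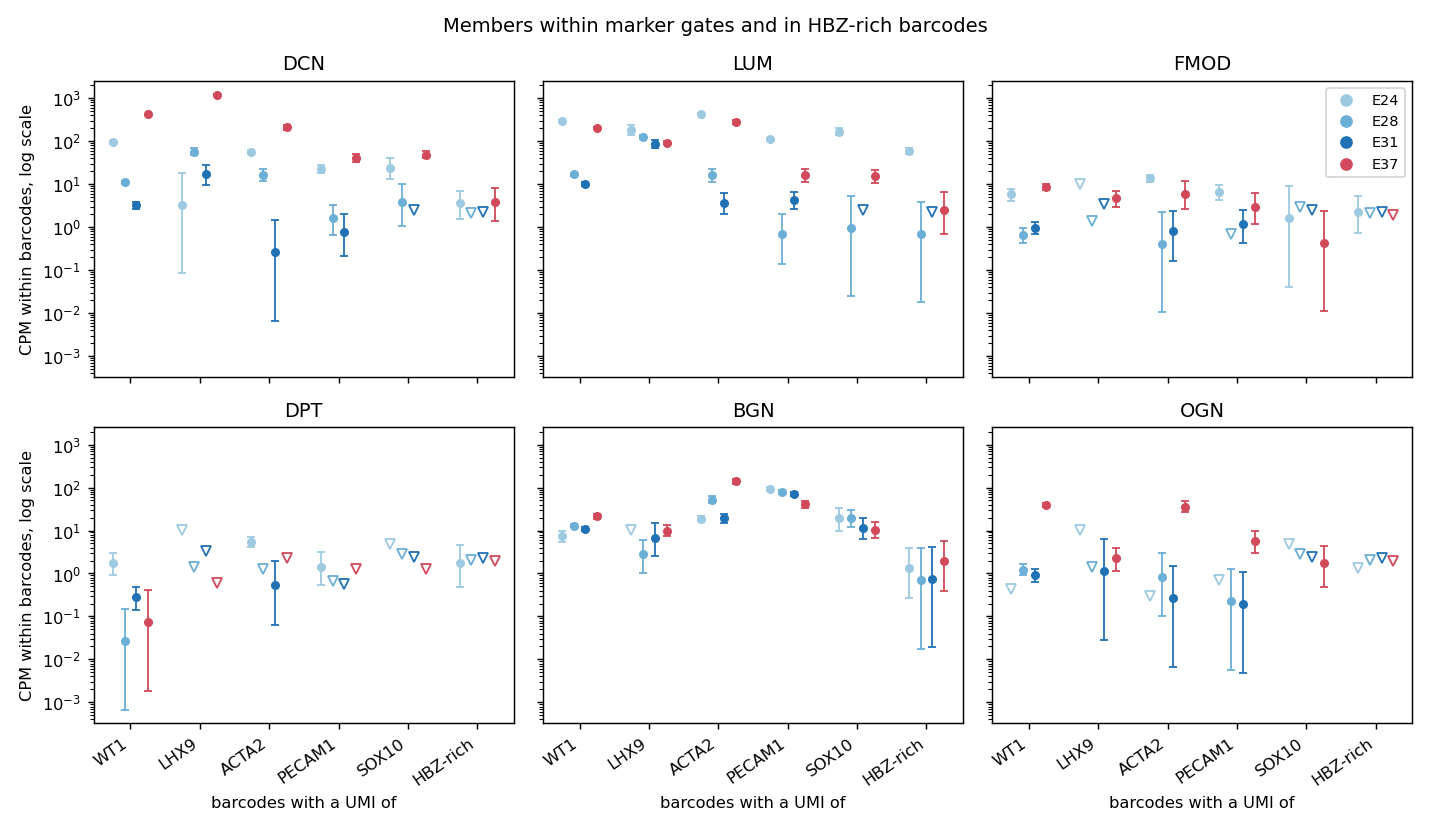
Level of each gene (CPM, log axis) among barcodes with a UMI of the marker named below, and among HBZ-rich barcodes, with 1 point per stage; bars are exact Poisson 95% intervals and open triangles the limit of 3 counts where no UMI was found. DCN at E37 runs from 1193 CPM in LHX9 barcodes down to 3.84 in HBZ-rich ones, and BGN in PECAM1 barcodes is lower at E37 than at the 3 earlier stages.

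Decorin levels in endothelial and neural crest barcodes were set beside those of HBZ-rich barcodes, in which at least 1% of UMIs were HBZ and a cell type not known to make these transcripts. At E37, DCN was at 40.2 CPM (32.5 to 49.1) in PECAM1 barcodes and 49.0 (40.4 to 58.9) in SOX10 barcodes, against 3.84 (1.41 to 8.35) in HBZ-rich ones. Per barcode this was 0.409 and 0.463 UMIs against 0.0531, at median depths of 8507, 8302.5 and 13358 UMIs. A few barcodes carried most of it: the 5 highest held 72 of the 94 UMIs in the PECAM1 gate and 90 of the 113 in the SOX10 gate.

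Without barcodes that also had another of the 5 markers, the PECAM1 gate kept 24 DCN UMIs in 203 barcodes, 11.7 CPM (7.50 to 17.4), and the SOX10 gate 39 in 221, 19.6 CPM (13.9 to 26.8), of which 30 came from 1 barcode. After thinning, DCN was found in 3.48% of PECAM1 barcodes (1.51 to 6.74) and 3.28% of SOX10 barcodes (1.43 to 6.36), ranges that overlap the 0% to 3.21% of HBZ-rich barcodes. The HBZ-rich share and CPM are lowered by globins, a median of 44.3% of the UMIs there. In SOX10 barcodes at E31 DCN had 0 UMIs, a limit of 2.44 CPM from 3 counts.

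Lumican was found in HBZ-rich barcodes too at E24. They held 134 LUM UMIs, 59.7 CPM (50.04 to 70.7), of which 117 lay in 5 barcodes. Their 1.35 UMIs per barcode compare with 1.38 in PECAM1 barcodes, and 20.2% of them had a LUM UMI against 21.0% of PECAM1 barcodes, at median depths of 23895 and 11220. After thinning the shares were 5.05% (1.66 to 11.4) and 9.58% (6.65 to 13.3), the first lowered by globins, a median of 21.9% of UMIs in HBZ-rich barcodes. The level per UMI was higher in PECAM1 barcodes, at 110 CPM (100.2 to 120.5), and the part of free RNA in it was not tested. BGN in the same HBZ-rich barcodes was at 1.34 CPM (0.276 to 3.91), far below its 93.7 in PECAM1 barcodes. At E28 and E31 the HBZ-rich barcodes (48 and 50) held 0 or 1 UMI of each of these genes.

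Each library was then clustered on its own, with the 6 genes and the lists used here kept out of the clustering, and clusters were called by a cell type only where at least 3 listed markers were high in them ("-like"). Not every cluster that met this rule is called by its type below. Cluster levels are a description. Most E24 decorin lay in 3 of the 27 clusters. Cluster 10 (663 barcodes, led by COL3A1 and COL1A1) had 869 CPM (846 to 893) and 46.7% of the DCN UMIs. Cluster 15 (242 barcodes, led by AQP1, FRZB and SLC5A12) had 730 CPM (699 to 761), and cluster 1, limb-mesenchyme-like with PRRX1 and TBX5, 278 CPM.

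Lumican at E24 peaked in cluster 15, at 5344 CPM (5261 to 5428), with 2437 in cluster 10. It was not limited to them: its sclerotome-like cluster 7 level was 643 CPM, in a group led by FOXC2, PAX1, MEOX2 and PAX9. The erythroid-like cluster 26 was at 57.3 CPM, near the HBZ-rich value. A cut of 20 CPM was reached by 25 of the 27 clusters for LUM and 9 for DCN. For LUM this cut lies below the erythroid-like level, so the count does not show how many clusters made LUM.

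Fibromodulin and dermatopontin at E24 were highest in other clusters. FMOD was highest in cluster 8 (935 barcodes, led by FST, DMRT2, RIPPLY1 and MEOX1), at 142 CPM (134 to 149), and this cluster held 64.4% of its UMIs. Cluster 8, like cluster 7, met the rule for sclerotome, with FOXC2, MEOX1 and TBX18 high. DCN in that cluster was at 9.85 CPM. DPT lay almost wholly in sclerotome-like cluster 7, with 39.7 CPM (35.9 to 43.9) and 83.5% of its UMIs, where FMOD stood at 48.7 CPM. BGN was highest in the endothelium-like cluster 0, at 121 CPM (109 to 133), with 35.3 in cluster 7.

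In the urogenital ridge of E28, both DCN and LUM were highest in a cluster of 49 barcodes led by COL3A1, DLK1, TAGLN and DES, at 230 CPM from 134 UMIs and 136 CPM from 79 UMIs. At E31 both DCN and LUM were highest in coelomic-epithelium-like cluster 2 (390 barcodes, led by TNC, COL3A1, RUNX1T1 and POSTN), where LUM at 96.6 CPM exceeded DCN at 18.2. BGN stayed highest in endothelium-like clusters, at 106 CPM at E28 and 90.8 at E31. OGN was highest in a nephric-epithelium-like cluster at E28, at 10.4 CPM from 17 UMIs. At E31 it was highest in a smooth-muscle-like cluster, at 7.34 CPM from 22 UMIs. FMOD at E31 was highest in cluster 21 (led by CAV1, TGFB2, MYF6 and TTN), at 18.3 CPM from 19 UMIs, and in a smooth-muscle-like cluster at 17.3.

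At E37 each of the 6 genes but DPT, with its 8 UMIs, had its maximum in another cluster. DCN was highest in cluster 2 (452 barcodes, led by LHX9, HAS2 and FREM3), at 1936 CPM (1883 to 1990) and 38.7% of its UMIs. Cluster 17 (led by KRT19, PODXL, KRT8 and LHX9) followed at 1585, then cluster 9 (LHX9, ASPM and PODXL) at 1119 and cluster 23 (CXCL10, PODXL and EMX2) at 1093. Clusters 9, 17 and 23, with cluster 12, were coelomic-epithelium-like, and together held 5012 DCN UMIs at 927 CPM (902 to 953). Cluster 2 was given no type. In cluster 2, LUM stood at 67.3 CPM, BGN at 7.94 and OGN at 7.56.

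Lumican had its E37 maximum in cluster 8 (454 barcodes, led by SULT1E1, ALX1 and FBLN5), at 965 CPM (929 to 1002) and 53.3% of its UMIs. DCN there was at 351 CPM and OGN at 107. OGN was highest in cluster 7 (led by NPNT, ADAMTS18 and RPRM), at 137 CPM (120.2 to 156), with 106 in cluster 4 (SULT1E1, DNER and EFEMP1), 79.1 in cluster 6 (SULT1E1, MECOM and EFEMP1) and 73.8 in smooth-muscle-like cluster 14. DCN in these 5 clusters ranged from 19.3 CPM in cluster 6 to the 351 of cluster 8.

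Biglycan at E37 was highest in a small endothelium-like cluster of 21 barcodes led by RNASE1, GJA5 and EDN1, at 442 CPM (350 to 552). The other endothelium-like cluster, of 175 barcodes, had 9.50 CPM (5.53 to 15.2). Smooth-muscle-like cluster 14 was at 206 CPM (178 to 236). FMOD was highest in cluster 11 (led by RXRG, NR1H4 and LHX2), at 23.9 CPM from 15 UMIs; with a finer clustering (resolution 2) its maximum was 39.5 CPM, from 5 UMIs in another cluster of 17 barcodes. DCN in E37 macrophage-like barcodes was at 24.8 CPM and in neural-crest-like ones at 34.7, and its lowest cluster was the erythroid-like one at 3.65.

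**Figure D3:**
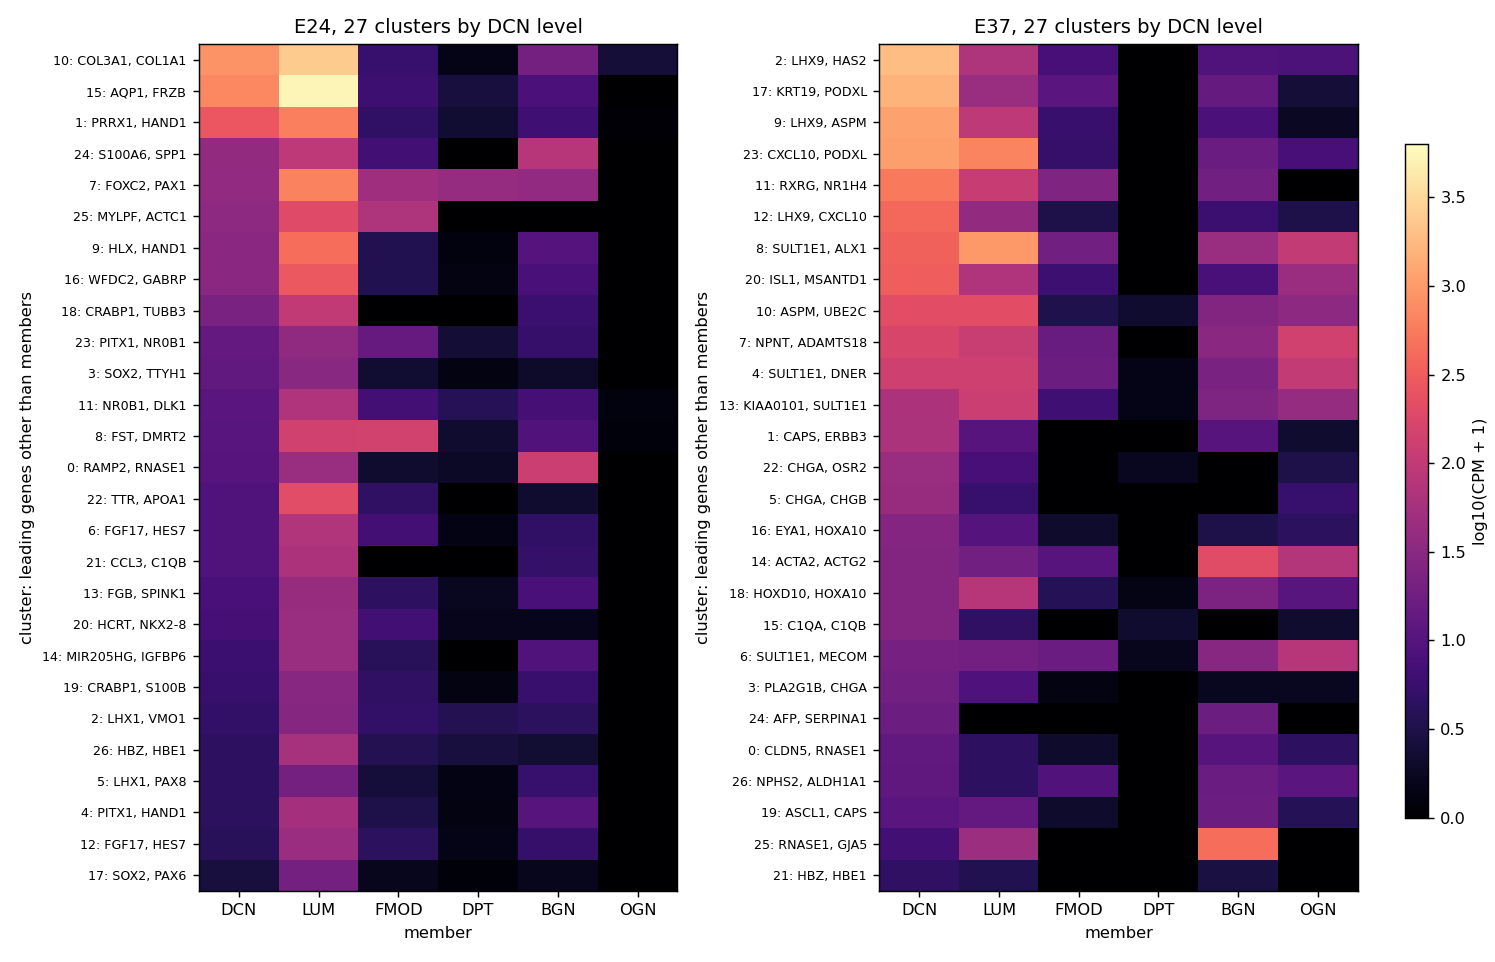
Level of the 6 genes (colour, log10 of CPM + 1) in the 27 clusters of E24 and the 27 of E37, 1 row per cluster labelled by number and leading genes, ordered by DCN. At E24 the DCN-rich rows are also rich in LUM and FMOD lies elsewhere; at E37 the DCN-rich rows are led by LHX9 or PODXL, LUM peaks in cluster 8 and OGN in clusters 4, 6, 7, 8 and 14.

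Within single barcodes, decorin and lumican were found together at E24. After thinning, LUM was found in 82.3% of barcodes with DCN (79.7 to 84.7) and in 17.5% of those without (16.7 to 18.2). The thinned share in HBZ-rich barcodes was 5.05% (1.66 to 11.4). FMOD went the other way, with 0.857% (0.370 to 1.68) among barcodes with DCN and 3.49% (3.14 to 3.88) among those without.

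At E37, LUM was found in 25.9% of barcodes with DCN (23.4 to 28.5) and in 7.93% of those without (7.12 to 8.80). OGN went with LUM, in 12.995% of barcodes with LUM (10.5 to 15.9) against 5.0% without (4.4 to 5.7), but not with DCN, in 4.51% (3.40 to 5.86) against 6.35% (5.63 to 7.14). FMOD at E37 was found in 2.13% of barcodes with DCN (1.38 to 3.13) and 1.12% of those without (0.818 to 1.48), so the E24 order did not hold. Exactly 2 of the 6 genes were found in 897 thinned barcodes at E24 and in 415 at E37, and exactly 3 in 29 and 57. The 5% of barcodes with the most DCN held 74.7% of its UMIs at E24 and 50.2% at E37, and for LUM 57.3% and 67.7%.

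**Figure D4:**
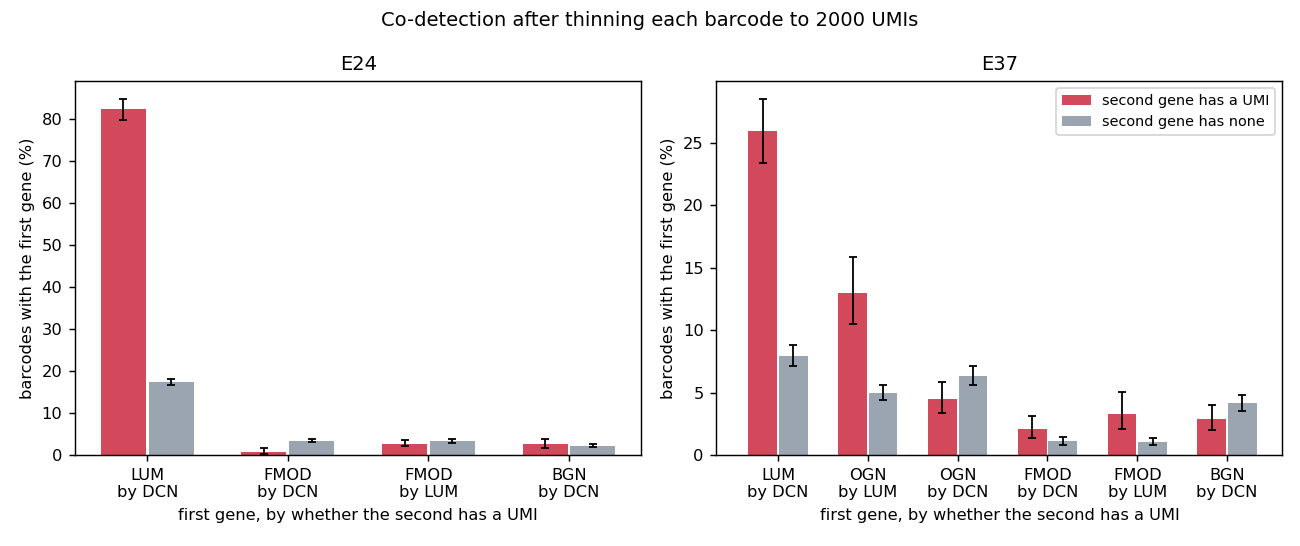
Share of barcodes (%) with a UMI of the first gene named, among barcodes with (red) and without (grey) a UMI of the second, after thinning to 2000 UMIs; bars are exact binomial 95% intervals, and the 2 panels have their own axes. LUM by DCN is 82.3% against 17.5% at E24 and 25.9% against 7.93% at E37, and OGN is more frequent with LUM than without it.

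Other genes were compared with DCN over the 27 clusters of E37 by Pearson's r of log2(CPM + 5). The points share 1 library, and the values are descriptions. Among the 5 most like it of 9890 genes were MYRF (0.88), a membrane-bound transcription factor, PRSS35 (0.82), TSHZ3 (0.80) and the chemokine CXCL11 (0.80). For LUM the nearest were SVEP1 (0.84), CRISPLD2 (0.82) and FREM1 (0.81). FMOD was nearest to PLAT (0.85), CREB3L1 (0.84) and the endothelin receptor gene EDNRA (0.83). BGN was nearest to fibronectin FN1 (0.83), the basement membrane collagen COL4A1 (0.82) and PLCD1 (0.82). OGN was nearest to the angiotensin receptor gene AGTR2 (0.91), ADAMTS18 (0.89) and SULT1E1 (0.88). With the finer clustering (resolution 2), LUM kept only SVEP1 of its nearest genes, beside DOCK11 and ALX1. FMOD kept only PLAT, beside EMILIN1 and PDGFRB. BGN kept FN1 and PLCD1, and OGN kept ADAMTS18 and SULT1E1. Among the genes themselves, DCN had r of 0.69 with LUM, 0.49 with FMOD, 0.14 with OGN and -0.08 with BGN.

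Collagens, on which these proteins lie, and their matrix partners were more often higher than lower at E37. Of 28 measured genes of this list, 14 were at least 2-fold higher at E37 than at E31 and 1 was lower, beside 8.79% and 7.95% of all genes, with a median log2 difference of 0.99 beside -0.05 for all genes. COL1A2 was at 217, 258, 229.6 and 863 CPM from E24 to E37, and COL3A1 at 426, 166, 175 and 594. SPARC, a collagen-binding matrix protein, was at 422, 480.3, 390.0 and 781 CPM, and SERPINH1, the collagen chaperone, at 357, 299, 307 and 466. From E24 to E28 this list held 2 genes higher and 2 lower of 28, beside 16.5% and 6.02% of all genes, over the step in which DCN, LUM and FMOD were lower.

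The shares of all genes over this last step, 8.79% higher and 7.95% lower, also stand beside the counts of the lists that follow. Of 27 measured enzymes and transporters for glycosaminoglycan chains, 4 were higher and 1 lower at E37 than at E31 (median log2 difference 0.05). UGDH, which makes the UDP-glucuronate that the chains need, was at 147, 131, 130.5 and 56.3 CPM, and the sulfate transporter SLC26A2 at 42.8, 30.6, 45.3 and 29.1. PAPSS1, which makes the sulfate donor, was at 70.9, 64.0, 67.6 and 87.2 CPM, and B3GAT3, a linker enzyme, at 27.8, 30.3, 39.7 and 41.0.

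Large and cell-surface proteoglycans were divided, with 5 of 22 higher and 3 lower at E37 (median 0.04). Versican, VCAN, was at 142, 384, 319 and 678 CPM, against 474, 583, 672 and 556 for the glypican GPC3. SDC2 was at 176, 145, 144.5 and 159 CPM and GPC6 at 39.3, 69.1, 67.2 and 99.2. In the TGF-beta axis, the growth factor system that decorin binds, 3 of 17 were higher and 2 lower (median 0.52): TGFBI was at 82.6, 33.2, 66.0 and 94.5 CPM, LTBP1 at 48.3, 81.5, 67.0 and 112, SMAD2 at 58.4, 72.1, 70.5 and 71.9, and TGFBR1 at 56.7, 68.5, 64.7 and 56.7. CCN2 of this list had no row under that symbol and is not in these counts.

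Of 20 genes used as general fibroblast markers, 6 were at least 2-fold higher at E37 and 0 lower (median 0.50). The chemokine CXCL12 was at 87.7, 239, 188 and 705 CPM, SFRP2 at 129, 237, 277 and 194, FBLN1 at 126, 77.6, 65.0 and 91.0, and TCF21 at 15.7, 103, 105 and 119. At E28 against E24, 10 of these 20 were at least 2-fold higher and 1 lower, beside 16.5% and 6.02% of all genes.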

How the data were processed

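Droplet single-cell libraries of 4 stages, 1 per stage, were used as deposited: unnormalized UMI counts for each gene in each barcode. Per the submitters' processing notes, the authors made these counts with Cell Ranger 2.1.0; the build and gene annotation were not given in the sources used here. Both v2 and v3 chemistry are named in the labels' protocols, with no key to the libraries. All 27626 deposited barcodes were kept and no doublet caller was run; doublets were addressed by leaving out the 5% of barcodes with the most UMIs and by gates without the other markers. The 1 row with a blank name held 0% of UMIs. Of 9499 rows with LOC names, 673 were given a symbol from the RefSeq table.

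Counts were summed per library, gate or cluster and divided by the summed UMIs. Ratios have exact conditional binomial 95% intervals; log2 ratios used 0.5 UMIs added to each count, a difference counted from 2-fold, and genes needed 50 UMIs over both sides. Clustering used scanpy 1.11.5 (10000 UMIs per barcode, 2000 variable genes, 30 components, 15 neighbours, Leiden resolution 1). The code was tested on simulated data. Genes and lists were chosen with earlier results of these data known. Named were the 6 genes, all other measured family genes, the 4 most abundant genes of 5 further lists, and the nearest 5 (DCN) or 3 genes over E37 clusters; an item of these is not reported here. With 1 library per stage no p-value was computed.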

Additional observations from a re-analysis of the deposited data

Results flagged for a closer look

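Within the LHX9 gate DCN was higher at E28 than at E24, by 3.52 on the log2 scale, but the E24 side was 1 UMI in 15 barcodes. Over the same step it was lower in the other gates, with log2 differences of -3.11 in WT1 barcodes, -3.76 in PECAM1 barcodes and -1.75 in ACTA2 barcodes. What drew attention is that the gates moved in opposite directions under the same comparison; the difference between gates was not tested.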

How the results depend on the processing

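No paired analysis was possible because each stage had 1 library. Among the 241 recomputed log2 ratios, a change of sign was looked for only where the main ratio was at 2-fold or more. Of all 387 recomputed values, counts and levels included, 23 for the main comparisons and 38 for single genes moved beyond their counting error or, for counts of genes, by over 1.5 times. For the 27 log2 ratios at 2-fold or more all 176 alternatives kept the direction, 3 of them under 2-fold. Centred on the median gene, the DCN log2 difference of E28 against E24 was -3.62 in place of -3.38; as a mean of per-barcode CPM it was -3.52. As shares of thinned barcodes with a UMI, the 3 DCN steps were -2.67, -0.99 and 4.99 (in place of -3.38, -1.67 and 6.76). For E37 against E31, a gate of at least 2 WT1 UMIs gave DCN 7.31 in place of 7.02, and gates without the other markers gave 6.28 (WT1), 4.21 (PECAM1, in place of 5.53), 5.20 (ACTA2, in place of 9.05) and 7.60 (LHX9, in place of 6.08, from 1 UMI in 17 E31 barcodes). A minimum of 20 UMIs moved counts of genes at least 2-fold apart to 2 higher at E31 against E28, to 1 lower at E37 against E31 (DPT), and to 2 higher in SOX10 and 2 in LHX9 barcodes. A minimum of 200 UMIs left 0 higher at E28 against E24, 0 at E31 against E28, and 0 in PECAM1 and SOX10 barcodes, with fewer genes counted. The PECAM1 count was also 0 with at least 2 UMIs of the marker or without the other markers, and the SOX10 count 0 without the other markers or without the 5% of barcodes with the most UMIs. Without the other markers, DCN was below the minimum of 50 UMIs in both gates. It was therefore not counted, although its log2 difference in those PECAM1 barcodes was 4.21. Of the 5 genes most like DCN, 3 were shared at Leiden resolution 2. At that resolution the highest DCN cluster at E24 was at 2560 CPM in 115 barcodes, and the highest OGN cluster at E37 at 329 CPM in 106. Where no cause is given above, the cause was not tested. The depth limits DPT, and DCN at E31 in the ACTA2 and SOX10 gates, to counts of a few UMIs.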
